A study of Homo sapiens with 9 samples.

Results

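The 36 genes described here are targets and regulators of 2 linked pathways, TGF-beta signalling through SMAD proteins and Hippo signalling through YAP and the TEAD factors. They were chosen by name from knowledge of the pathways, but with earlier results of these data known. The share of them that passes a test is therefore not independent of these data. Every name matched 1 Ensembl gene among the 60671 in the tables. All 36 passed the filter on low counts that kept 19812 genes for testing. RNA was sequenced from the immortalised human chondrocyte line C28/I2, in 3 groups of 3 libraries. The CA2 shRNA group is labelled with a short hairpin RNA against CA2, the gene of carbonic anhydrase 2. The Scrambled group is labelled only by that word, the usual name of a hairpin with no intended target, and the Control group only as control. The hairpins' sequences, how they were delivered and how the Control cells were handled are not stated in the sources used here. Whether libraries of a group are separate cultures is not stated, and the p-values therefore reflect only the spread between these libraries, which may be technical.

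TGF-beta binds receptor kinases at the cell surface, which phosphorylate SMAD2 and SMAD3. These join SMAD4, enter the nucleus and switch on genes of the extracellular matrix together with genes such as SMAD7 and PMEPA1 that damp the signal. In the Hippo pathway the LATS kinases hold YAP and its relative TAZ (gene WWTR1) in the cytoplasm. When YAP and TAZ are free, they bind TEAD factors on DNA and switch on genes such as CCN1, CCN2 and ANKRD1, and SMAD and YAP complexes can act on the same promoters. In cartilage TGF-beta is known for its part in matrix production, and YAP for its response to the stiffness of the matrix.

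Totals ranged from 16994368 to 34261244 counts per library. CA2 itself had 1.4, 0.905 and 1.1 CPM (counts divided by the library's TMM-scaled total, on a scale of 1e6) in CA2 shRNA, against 1.82, 1.96 and 2.06 CPM in Scrambled, with 2.31, 2 and 1.94 CPM in Control. It was lower in CA2 shRNA than in Scrambled by an adjusted p of 0.0276, and than in Control by an adjusted p of 0.0159. Scrambled 2 and Control 3 stood apart: mitochondrial genes took 4.08% and 4.06% of their counts, against 5.55% to 6.86% elsewhere, and the nuclear transcript NEAT1 had 233 and 159 CPM, against 266 to 680 CPM. Calls of the 36 genes that change when both are left out are given with and without them. Of 12 chondrocyte markers 5 averaged 1 CPM or more, led by SOX9, and COL9A1 had no count in any library. The marker lists summed to 125 to 128 CPM for chondrocytes in CA2 shRNA, against 111 to 118 CPM in Scrambled and 106 to 120.1 CPM in Control. Most of that sum was SOX9, which rose (105 CPM in CA2 shRNA, against 90.9 CPM in Scrambled and 90.7 CPM in Control, adjusted p = 0.0364 against Scrambled and 0.0381 against Control). COMP, a cartilage matrix protein, fell, at 1.35 CPM in CA2 shRNA, against 2.48 CPM in Scrambled and 2.42 CPM in Control (adjusted p = 0.0161 against Scrambled and 0.0215 against Control). SOX6 had 0.563 CPM in CA2 shRNA, against 1.07 CPM in Scrambled and 0.809 CPM in Control, and did not pass (adjusted p = 0.0724 against Scrambled). The part of these markers in the results was not tested. Immune, endothelial, epithelial and adipocyte lists stayed between 0.549 and 4.57 CPM in every library. The 3 smooth muscle markers summed to 32.5 to 39.6 CPM in CA2 shRNA, against 48.5 to 54.2 CPM in Scrambled and 52.5 to 54.2 CPM in Control, nearly all of it ACTG2, a smooth muscle actin, while DES stayed below 1 CPM. The part of ACTG2-expressing cells in the results was not tested, and in bulk RNA fewer cells of a type and less RNA per cell cannot be told apart.

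Against Scrambled, 18 of the 36 genes fell in CA2 shRNA cells, 5 rose and 13 did not pass an adjusted p of 0.05 in edgeR's quasi-likelihood test. Among all 19812 genes tested 16.9% passed, 8.88% lower and 8.02% higher, or 1759 lower and 1589 higher, 3348 genes in all. The total was 2059 without Scrambled 3. The higher genes numbered 864 without Scrambled 3 and 906 without CA2 shRNA 2, while leaving out CA2 shRNA 1 gave 1129 lower genes and leaving out CA2 shRNA 3 gave 1164. The balance turned when Control 3 and Scrambled 2 were both left out, with 2407 higher and 1882 lower. It also turned without Scrambled 2 (2357 higher and 1654 lower), CA2 shRNA 1 (1536 and 1129) or CA2 shRNA 3 (1546 and 1164). DESeq2 (1893 and 1427), DESeq2 size factors in edgeR (1810 and 1596) and a minimum of 1 CPM (1972 and 1696) turned it as well. Well-counted genes pass more often: at a mean of at least 10 CPM, a limit chosen after the levels were seen, 21 of the 33 genes of the set passed (63.6%), against 26.7% of all genes at that level. The median log2 change was -0.20 over the 36 genes and -0.03 over all genes tested. Against Control, 18 genes fell, 4 rose and 14 did not pass, where 14.7% of all genes tested passed, 8.26% lower and 6.41% higher. Those 1637 lower genes became 1063 without CA2 shRNA 1. The 1269 higher genes became 663 without CA2 shRNA 2, 686 without Control 2 and 2030 without Scrambled 2, where 1632 were lower. The balance against Control thus turned without Scrambled 2, and with both Control 3 and Scrambled 2 left out, at 1752 higher and 1461 lower. It also turned without CA2 shRNA 1 (1265 higher and 1063 lower), without CA2 shRNA 3 (1272 and 1108) and with a minimum of 1 CPM (1674 and 1557). At a mean of at least 10 CPM 20 of the 33 genes of the set (60.6%) passed against Control, and 23.7% of all genes at that level. The 3 CA2 shRNA libraries did not overlap those of Scrambled for 27 genes, 20 lower and 7 higher, a separation seen in 32.3% of all genes tested, and did not overlap those of Control for 25 genes, against 33% of all genes tested. The comparisons share the CA2 shRNA libraries, so each is given with its own values. Between Scrambled and Control none of the 36 genes passed, and none did at an unadjusted p under 0.05, with log2 changes from -0.13 to 0.04. Libraries of Scrambled lay wholly below those of Control for 3 of the 36 and overlapped for 33, where 6.81% of all genes tested did not overlap. Over all genes that comparison gave 0 calls in edgeR, 7 with no filter on low counts and 1 without Scrambled 2, and DESeq2 gave 1. At an unadjusted p under 0.05 there were 550 genes in edgeR (2.78%) and 396 in DESeq2. That number of 550 became 2039 without Scrambled 2, 1435 without Control 1, 363 without Control 2, 343 without Control 3, 346 without Scrambled 3 and 1069 without both Control 3 and Scrambled 2.

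**Figure D1:**
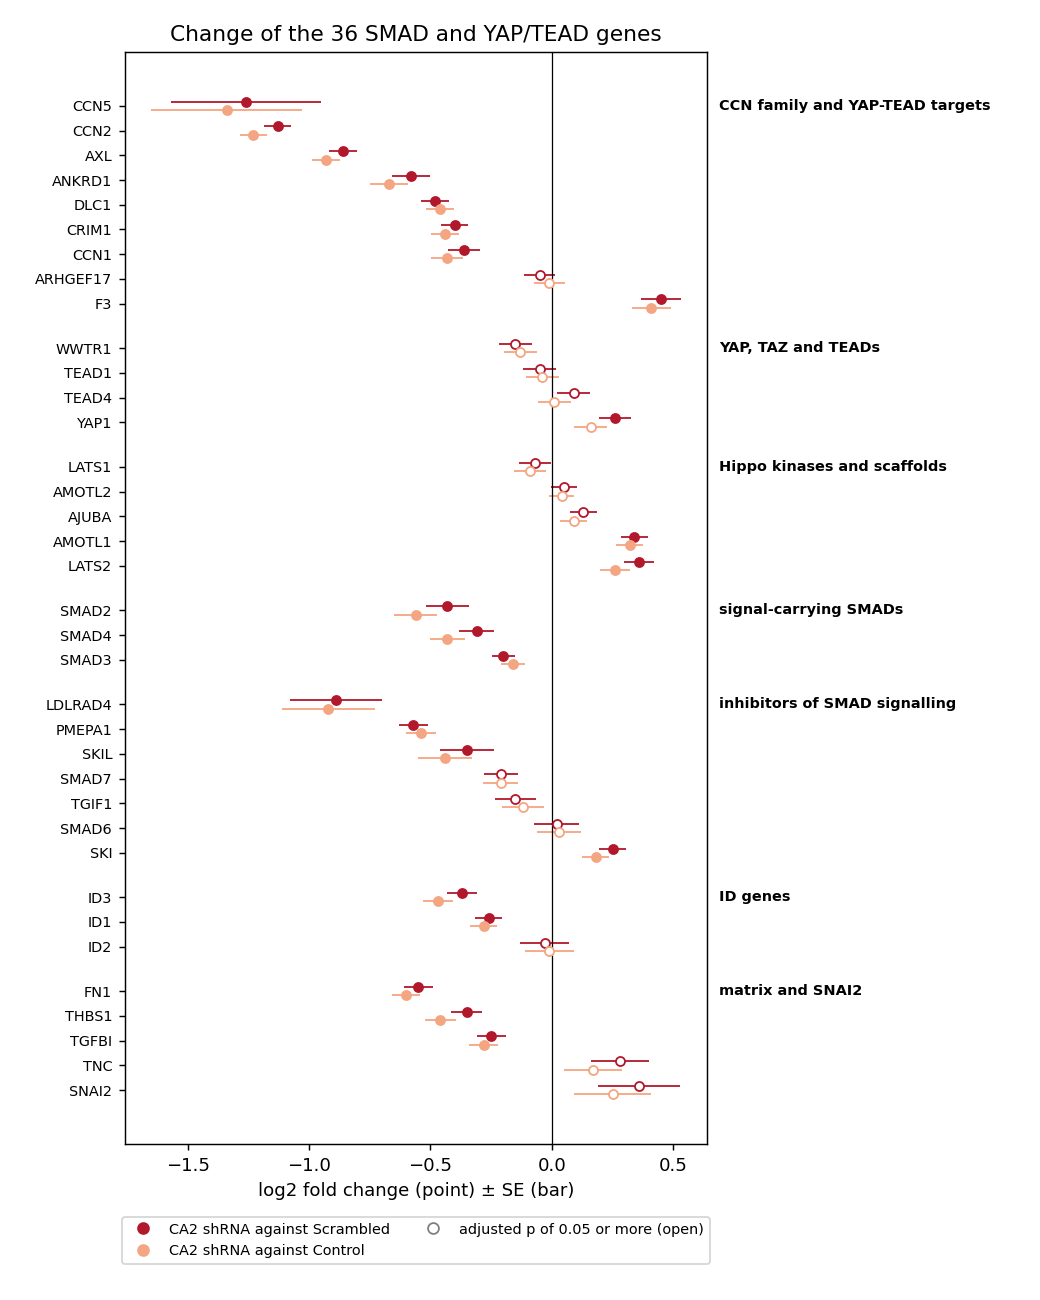
Log2 fold change (horizontal axis, point) with its SE (bar) of the 36 genes in CA2 shRNA against Scrambled and against Control, grouped by role from top to bottom, with open points where the adjusted p was 0.05 or more. Points run from -1.26 (CCN5) to 0.45 (F3) against Scrambled, and the signal-carrying SMADs lie left of 0.

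Of the 9 CCN genes and YAP-TEAD targets, 7 fell against each of Scrambled and Control, F3 rose and ARHGEF17 did not pass. CCN2 (connective tissue growth factor, a secreted matricellular protein) had 62.1, 61.2 and 63.5 CPM in CA2 shRNA, against 138, 141 and 130.1 CPM in Scrambled, with 143, 143 and 151 CPM in Control. The gene, ENSG00000118523, lies at chr6:131948176-131951372 on the minus strand (GRCh38). Its libraries were close together within each group, and no CA2 shRNA library came near a library of the other groups. The CA2 shRNA mean of 62.3 ± 1.15 CPM (SD, n = 3) was 45.6% of the Scrambled mean. The log2 change was -1.13 (SE 0.056, adjusted p = 4.83e-10), and -1.23 against Control (SE 0.056, adjusted p = 1.82e-10). Its relative CCN1, another classical target of YAP, had 182, 219 and 189 CPM in CA2 shRNA, against 253, 254 and 249 CPM in Scrambled, with 283, 256 and 257 CPM in Control. CCN1 fell by 0.36 against Scrambled as a log2 change (SE 0.066, adjusted p = 0.000861), with a fall of 0.43 against Control (SE 0.066, adjusted p = 0.000154). Within a library the ratio of CCN1 to CCN2 in RPKM (the deposited count per kilobase of exon and per 1e6 counts) was 1.85, 2.26 and 1.88 in CA2 shRNA, against 1.16, 1.14 and 1.21 in Scrambled and 1.25, 1.13 and 1.08 in Control. The ratio in CA2 shRNA lay above that of every other library, and no test was run on these ratios.

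CCN5, a CCN protein without the C-terminal domain of its relatives, was the least abundant of the 3, with 19, 10 and 24 counts in CA2 shRNA, against 54, 35 and 67 in Scrambled and 60, 48 and 52 in Control. These counts correspond to 0.81 ± 0.182 CPM in CA2 shRNA, against 1.99 ± 0.604 CPM in Scrambled and 2.13 ± 0.53 CPM in Control (SD, n = 3 each). Its log2 change of -1.26 against Scrambled (SE 0.31, adjusted p = 0.00828) was the lowest of the 36, and it missed the threshold without CA2 shRNA 2 (adjusted p = 0.0522). Against Control it was -1.34 (SE 0.31, adjusted p = 0.0056). Scrambled 2 and Control 3 were the lowest libraries of their groups for CCN5, and still above all 3 CA2 shRNA libraries.

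ANKRD1, a nuclear and sarcomeric ankyrin repeat protein used as a reporter of YAP activity, had 21.8, 24 and 24.1 CPM in CA2 shRNA, against 32.2, 37.6 and 34.3 CPM in Scrambled, with 38.5, 36.6 and 36.2 CPM in Control. No library of CA2 shRNA overlapped the others. The log2 change was -0.58 against Scrambled (SE 0.078, adjusted p = 4.39e-05) and -0.67 against Control (SE 0.078, adjusted p = 8.06e-06). AXL, the gene of a receptor tyrosine kinase for GAS6, had 441, 503 and 459 CPM in CA2 shRNA, against 827, 897 and 825 CPM in Scrambled, with 896, 866 and 902 CPM in Control. AXL (ENSG00000167601, chr19:41219223-41261766, plus strand) stood at 55% of the Scrambled mean. As log2 changes this was -0.86 (SE 0.059, adjusted p = 1.71e-08) against Scrambled and -0.93 against Control (SE 0.059, adjusted p = 6.99e-09). DLC1 also fell, as did CRIM1, the gene of a membrane protein that binds BMPs. DLC1 had 135, 151 and 145 CPM in CA2 shRNA, against 198, 204 and 199 CPM in Scrambled, with 197, 189 and 206 CPM in Control (log2 change against Scrambled -0.48, SE 0.057, adjusted p = 9.87e-06). CRIM1 had 221, 241 and 236 CPM in CA2 shRNA, against 294, 324 and 303 CPM in Scrambled, with 322, 303 and 319 CPM in Control (log2 change against Scrambled -0.40, SE 0.056, adjusted p = 6.33e-05). Against Control the log2 changes were -0.46 for DLC1 (SE 0.057, adjusted p = 1.53e-05) and -0.44 for CRIM1 (SE 0.056, adjusted p = 2.61e-05). For both genes the highest CA2 shRNA library lay below the lowest of the other groups.

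F3 (tissue factor, the membrane protein that starts blood coagulation) went the other way, with 34.1, 31.9 and 33 CPM in CA2 shRNA, against 23.6, 26.4 and 22.5 CPM in Scrambled, with 26.6, 23.3 and 24.5 CPM in Control. Its rise of 0.45 log2 units against Scrambled (SE 0.081, adjusted p = 0.000732) was the highest of the 36, and it was 0.41 against Control (SE 0.081, adjusted p = 0.00153). ARHGEF17 averaged 64.8 ± 2.6 CPM in CA2 shRNA, 67 ± 3.24 CPM in Scrambled and 65.3 ± 3.74 CPM in Control (SD, n = 3 each), with overlapping libraries.

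**Figure D2:**
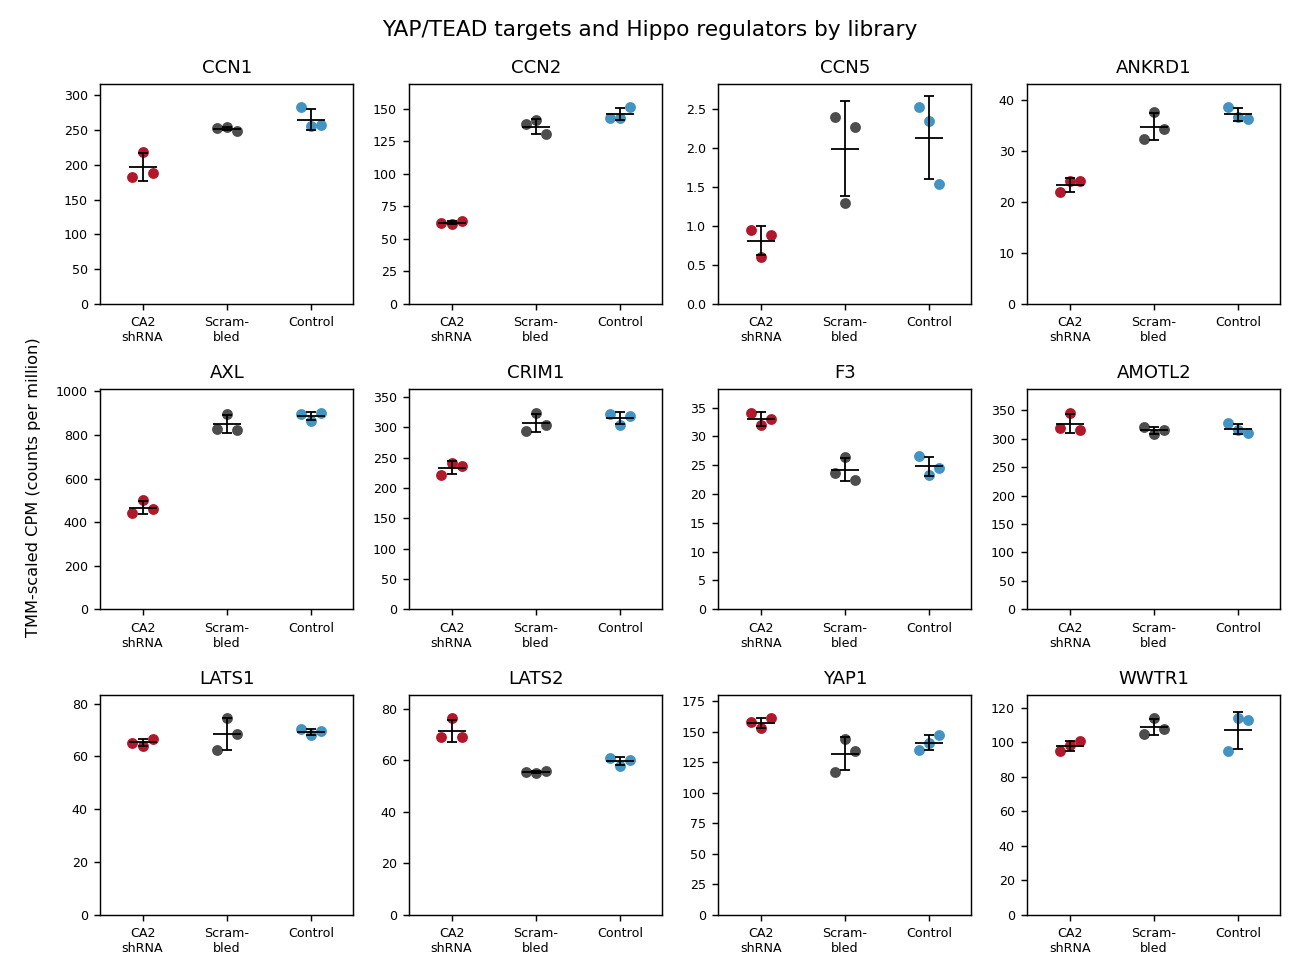
TMM-scaled CPM (vertical axis, from 0) of 12 YAP-TEAD and Hippo genes in each library (points) with the mean and SD of 3 libraries (bars), CA2 shRNA at the left of each panel. CCN2 sits at 61.2 to 63.5 CPM in CA2 shRNA and at 130.1 CPM or more elsewhere, while AMOTL2 lies between 309 and 346 CPM throughout.

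The promoters of CCN2 and ANKRD1 are shown because both genes fell and both hold the TEAD core motif more than once. RefSeq promoters (GRCh38.p14, from 250 bases before to 50 after 1 RefSeq start per gene, read in the gene's direction) were found for 27 of the 36 genes. That start can lie inside the gene as counted. The AMOTL1 window is chr11:94768106-94768405 on the plus strand, where the counted gene begins at 94706431. The core GGAATG, searched on both strands (CATTCC on the other), occurred in 6 of the 27 (22.2%) and in 14% of 27305 promoters of the same length. At least 2 copies occurred in 1.37% of the 27305. The SMAD core CAGAC, searched on both strands in the same way (the opposite strand reads GTCTG), occurred in 15 of the 27 (55.6%) and in 45% of all promoters. The other 4 holders of GGAATG were THBS1, which fell, LATS2 and YAP1, which rose against Scrambled, and ID1, which fell. AXL, which fell, F3, which rose, and AMOTL2, which did not pass, held none. No promoter was found for CCN1, CCN5, CRIM1 and DLC1, which fell, or for ARHGEF17. Capitals mark matches to either core. A match describes the letters of the window and was not measured as a binding site. The CCN2 promoter, chr6:131951323-131951622 on the minus strand, holds 3 TEAD cores, starting at -169, -104 and -95 (counted from 0 at the first base of the gene), and a SMAD core at -177. The ANKRD1 promoter, chr10:90921038-90921337 on the minus strand, holds TEAD cores at -220 and -128 and SMAD cores at -142 and -132, with 1 base shared by the cores at -132 and -128.
CCN2: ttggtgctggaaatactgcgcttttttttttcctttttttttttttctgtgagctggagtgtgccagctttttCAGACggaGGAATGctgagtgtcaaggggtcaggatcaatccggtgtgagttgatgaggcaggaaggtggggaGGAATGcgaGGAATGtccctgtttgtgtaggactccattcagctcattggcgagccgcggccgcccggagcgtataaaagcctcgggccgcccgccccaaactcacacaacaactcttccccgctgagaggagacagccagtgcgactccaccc
ANKRD1: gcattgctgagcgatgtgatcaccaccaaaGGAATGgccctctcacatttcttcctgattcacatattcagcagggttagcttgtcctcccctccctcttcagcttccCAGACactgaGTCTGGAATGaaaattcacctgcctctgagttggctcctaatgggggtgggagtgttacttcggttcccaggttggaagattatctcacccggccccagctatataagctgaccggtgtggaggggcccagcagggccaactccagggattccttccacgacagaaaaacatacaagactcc

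Of the genes of YAP, TAZ and the TEAD factors themselves, YAP1 rose against Scrambled and the other 3 did not pass. YAP1 had 158, 153 and 161 CPM in CA2 shRNA, against 117, 144 and 134 CPM in Scrambled, with 135, 141 and 147 CPM in Control. Its libraries in CA2 shRNA were above all others, with a log2 change of 0.26 against Scrambled (SE 0.067, adjusted p = 0.0132), a call lost without Scrambled 1 (0.17, adjusted p = 0.0647). Against Control it did not pass (0.16, adjusted p = 0.137), but did without Scrambled 2 (0.19, adjusted p = 0.0292) or without both Control 3 and Scrambled 2 (0.22, adjusted p = 0.0228). Scrambled less Control was not a called difference for YAP1 (-0.10, adjusted p = 1). WWTR1 averaged 98 ± 2.93 CPM in CA2 shRNA, 109 ± 4.76 CPM in Scrambled and 107 ± 10.7 CPM in Control (SD, n = 3 each) and did not pass (adjusted p = 0.14 against Scrambled and 0.239 against Control, or 0.0348 against Control without Control 1). The ratio of YAP1 to WWTR1 in RPKM was 2.2, 2.07 and 2.12 in CA2 shRNA, against 1.47, 1.67 and 1.65 in Scrambled and 1.88, 1.63 and 1.73 in Control, higher in each CA2 shRNA library than elsewhere. TEAD1 and TEAD4, DNA-binding partners of YAP, did not pass in either comparison. TEAD1 averaged 313 ± 16.2 CPM in CA2 shRNA, 325 ± 34.9 CPM in Scrambled and 322 ± 8.84 CPM in Control. TEAD4 averaged 72.1 ± 5.01 CPM in CA2 shRNA, 67.9 ± 4.28 CPM in Scrambled and 71.5 ± 0.668 CPM in Control (SD, n = 3 each for both). Per exon length their levels were close, at 29.1 ± 1.65 RPKM for TEAD1 and 31.6 ± 1.7 RPKM for TEAD4 in CA2 shRNA.

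Of the 5 Hippo kinases and scaffolds, LATS2 and AMOTL1 rose against both Scrambled and Control, and LATS1, AMOTL2 and AJUBA did not pass. LATS2, a kinase that phosphorylates YAP and is itself a YAP target, had 69.1, 76.3 and 68.9 CPM in CA2 shRNA, against 55.6, 55.1 and 55.9 CPM in Scrambled, with 61, 57.8 and 59.9 CPM in Control. The groups did not overlap, with log2 changes of 0.36 against Scrambled (SE 0.062, adjusted p = 0.00046) and 0.26 against Control (SE 0.062, adjusted p = 0.00733). The call against Control was lost without Control 2 (adjusted p = 0.0658) or CA2 shRNA 2 (adjusted p = 0.0563). Its paralog LATS1 averaged 65.3 ± 1.51 CPM in CA2 shRNA, 68.5 ± 5.98 CPM in Scrambled and 69.3 ± 1.19 CPM in Control (SD, n = 3 each), so the LATS2 to LATS1 ratio in RPKM was 1.66 ± 0.133 in CA2 shRNA, 1.23 ± 0.113 in Scrambled and 1.3 ± 0.0134 in Control. AMOTL1, a junction scaffold of the angiomotin family that binds YAP, had 179, 192 and 192 CPM in CA2 shRNA, against 142, 157 and 146 CPM in Scrambled, with 149, 149 and 154 CPM in Control. It rose by 0.34 against Scrambled as a log2 change (SE 0.056, adjusted p = 0.00031), with 0.32 against Control (SE 0.056, adjusted p = 0.000636). Its relative AMOTL2, a YAP target in many cells, averaged 327 ± 16.3 CPM in CA2 shRNA, 315 ± 5.63 CPM in Scrambled and 318 ± 9.02 CPM in Control. AJUBA, a LIM protein that restrains LATS kinases, averaged 154 ± 6.56 CPM in CA2 shRNA, 141 ± 4.69 CPM in Scrambled and 145 ± 6.41 CPM in Control (SD, n = 3 each for both). Its adjusted p against Scrambled was 0.12.

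**Figure D3:**
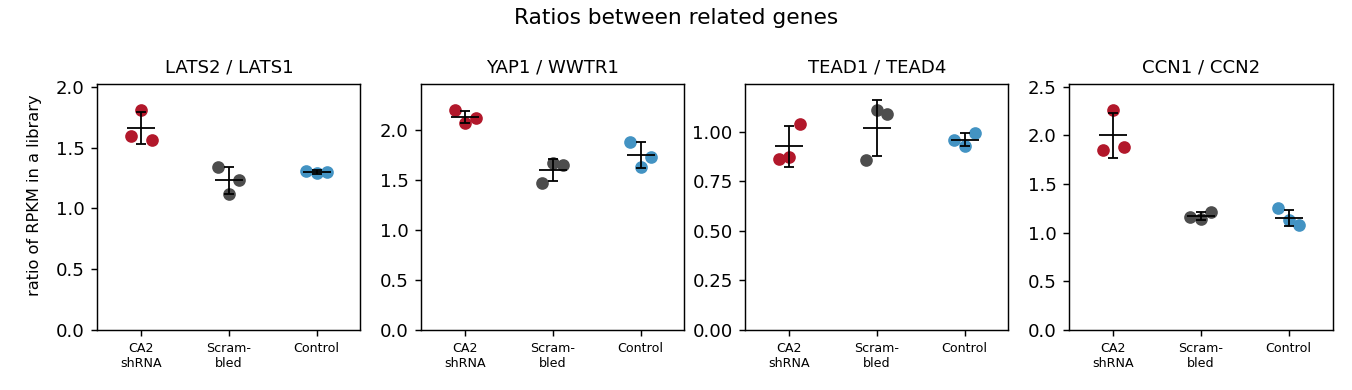
Ratio of the RPKM of a gene to that of a related gene within each library (vertical axis, no unit), with points for libraries and bars for the mean and SD of 3. CCN1 over CCN2, LATS2 over LATS1 and YAP1 over WWTR1 are higher in each CA2 shRNA library than in any other, and TEAD1 over TEAD4 overlaps between groups.

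The 3 signal-carrying SMADs fell against both Scrambled and Control. SMAD2 had 94.6, 85.9 and 99 CPM in CA2 shRNA, against 107, 143 and 127 CPM in Scrambled, with 134, 137 and 143 CPM in Control. Scrambled spread widely, with Scrambled 1 lowest, but stayed above CA2 shRNA. Its log2 change was -0.43 against Scrambled (SE 0.089, adjusted p = 0.00435) and -0.56 against Control (SE 0.089, adjusted p = 0.000602). SMAD4, the common partner, had 52.3, 48.3 and 49.5 CPM in CA2 shRNA, against 56.1, 66.1 and 64 CPM in Scrambled, with 65.7, 65.2 and 71.5 CPM in Control. It had log2 changes of -0.31 against Scrambled (SE 0.072, adjusted p = 0.00549) and -0.43 against Control (SE 0.072, adjusted p = 0.000356). SMAD3, the other receptor-activated SMAD, had 468, 467 and 467 CPM in CA2 shRNA, against 537, 532 and 539.8 CPM in Scrambled, with 511, 526 and 534 CPM in Control. Its log2 change of -0.20 against Scrambled (SE 0.048, adjusted p = 0.00789) missed the threshold without CA2 shRNA 1 (adjusted p = 0.0659) or CA2 shRNA 3 (adjusted p = 0.0638). Against Control it was -0.16 (SE 0.048, adjusted p = 0.0279), lost without Control 2 (0.0699), Control 3 (0.113), Scrambled 2 (0.0847), CA2 shRNA 1 (0.163) or CA2 shRNA 3 (0.161), all adjusted p. Without both Control 3 and Scrambled 2 it was -0.12 (adjusted p = 0.213). Per exon length SMAD3 stood at 49.9 ± 0.952 RPKM and SMAD2 at 2.55 ± 0.228 RPKM in CA2 shRNA (SD, n = 3), where the tables give SMAD2 36426 bases of exon and SMAD3 9330, so a transcript of SMAD2 shorter than that is understated.

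Among 7 genes that inhibit SMAD signalling, PMEPA1, LDLRAD4 and SKIL fell, SKI rose, and SMAD6, SMAD7 and TGIF1 did not pass, with the same calls in the Control comparison. PMEPA1, a membrane protein induced by TGF-beta that sequesters SMADs, had 125, 123 and 132 CPM in CA2 shRNA, against 196, 187 and 183 CPM in Scrambled, with 169, 189 and 194 CPM in Control. The groups were well apart, with log2 changes of -0.57 against Scrambled (SE 0.061, adjusted p = 3.2e-06) and -0.54 against Control (SE 0.061, adjusted p = 6.1e-06). Its relative LDLRAD4 had only 48, 29 and 62 counts in CA2 shRNA, against 85, 108 and 125 in Scrambled and 75, 94 and 153 in Control. As levels these were 2.4, 1.75 and 2.27 CPM in CA2 shRNA, against 3.78, 3.99 and 4.23 CPM in Scrambled, with 3.15, 4.58 and 4.49 CPM in Control. LDLRAD4 had a log2 change of -0.89 against Scrambled (SE 0.19, adjusted p = 0.00314) and -0.92 against Control (SE 0.19, adjusted p = 0.00255).

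SKI and SKIL are related corepressors that bind SMADs, and they moved in opposite directions. SKI had 199, 215 and 204 CPM in CA2 shRNA, against 172, 182 and 166 CPM in Scrambled, with 181, 183 and 180.5 CPM in Control. It rose by 0.25 against Scrambled as a log2 change (SE 0.054, adjusted p = 0.00346), with 0.18 against Control (SE 0.054, adjusted p = 0.0272). The call against Control was lost without Control 1 (adjusted p = 0.0689), Control 2 (0.109), Control 3 (0.0846) or CA2 shRNA 2 (0.133). SKIL, which TGF-beta induces, had 94.1, 80.7 and 105 CPM in CA2 shRNA, against 100.4, 132 and 123 CPM in Scrambled, with 121, 131 and 127 CPM in Control, so that CA2 shRNA 3 overlapped Scrambled 1. Its change of -0.35 against Scrambled (SE 0.11) was at the threshold (adjusted p = 0.0491) and was lost in 11 of 18 alternatives. Those included leaving out Control 1 (adjusted p = 0.0636), Control 2 (0.0601), Control 3 (0.0664), Scrambled 2 (0.137), Scrambled 3 (0.15), and CA2 shRNA 1 (0.13) or 2 (0.119). Without both Control 3 and Scrambled 2 the change was -0.24 (adjusted p = 0.146). Against Control it was -0.44 (SE 0.11, adjusted p = 0.0192), lost without Control 2 (0.0584), Control 3 (0.0578) or CA2 shRNA 1 (0.0645).

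SMAD7, the inhibitory SMAD that TGF-beta induces, averaged 47.7 ± 1.75 CPM in CA2 shRNA, 54.9 ± 3.86 CPM in Scrambled and 55 ± 3.51 CPM in Control (SD, n = 3 each). Its CA2 shRNA libraries were below all others, and its log2 change of -0.21 against Scrambled did not pass (adjusted p = 0.0565), although it did without Scrambled 2 (adjusted p = 0.0228). Against Control it was also -0.21 (adjusted p = 0.0628), and passed without Scrambled 1 (adjusted p = 0.0263). With Control 3 and Scrambled 2 both left out it passed against Scrambled (-0.24, adjusted p = 0.0176) and against Control (-0.22, adjusted p = 0.0357). SMAD6, which acts mainly on BMP signals, averaged 79.5 ± 1.49 CPM in CA2 shRNA, 78.5 ± 8.83 CPM in Scrambled and 77.8 ± 10.1 CPM in Control. TGIF1, a homeobox corepressor, averaged 25.2 ± 0.82 CPM in CA2 shRNA, 27.9 ± 1.65 CPM in Scrambled and 27.4 ± 2.94 CPM in Control (SD, n = 3 each for both). Neither gene had an adjusted p below 0.282 in the CA2 shRNA comparison with Scrambled.

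ID1 and ID3, inhibitors of helix-loop-helix factors and classical targets of BMP signalling through other SMADs, fell, while ID2 did not pass. ID3 had 103, 100.4 and 91.6 CPM in CA2 shRNA, against 136, 125 and 121 CPM in Scrambled, with 136, 139 and 134 CPM in Control (log2 change against Scrambled -0.37, SE 0.061, adjusted p = 0.000361). ID1 had 107, 109.7 and 100 CPM in CA2 shRNA, against 130, 122 and 128 CPM in Scrambled, with 128, 129 and 127 CPM in Control (log2 change against Scrambled -0.26, SE 0.055, adjusted p = 0.0026). Neither overlapped between CA2 shRNA and the other groups. Against Control the changes were -0.47 for ID3 (adjusted p = 2.89e-05) and -0.28 for ID1 (adjusted p = 0.0016). ID2 was the least abundant, at 11.9 ± 0.936 CPM in CA2 shRNA, 12.1 ± 0.778 CPM in Scrambled and 11.9 ± 0.463 CPM in Control (SD, n = 3 each).

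**Figure D4:**
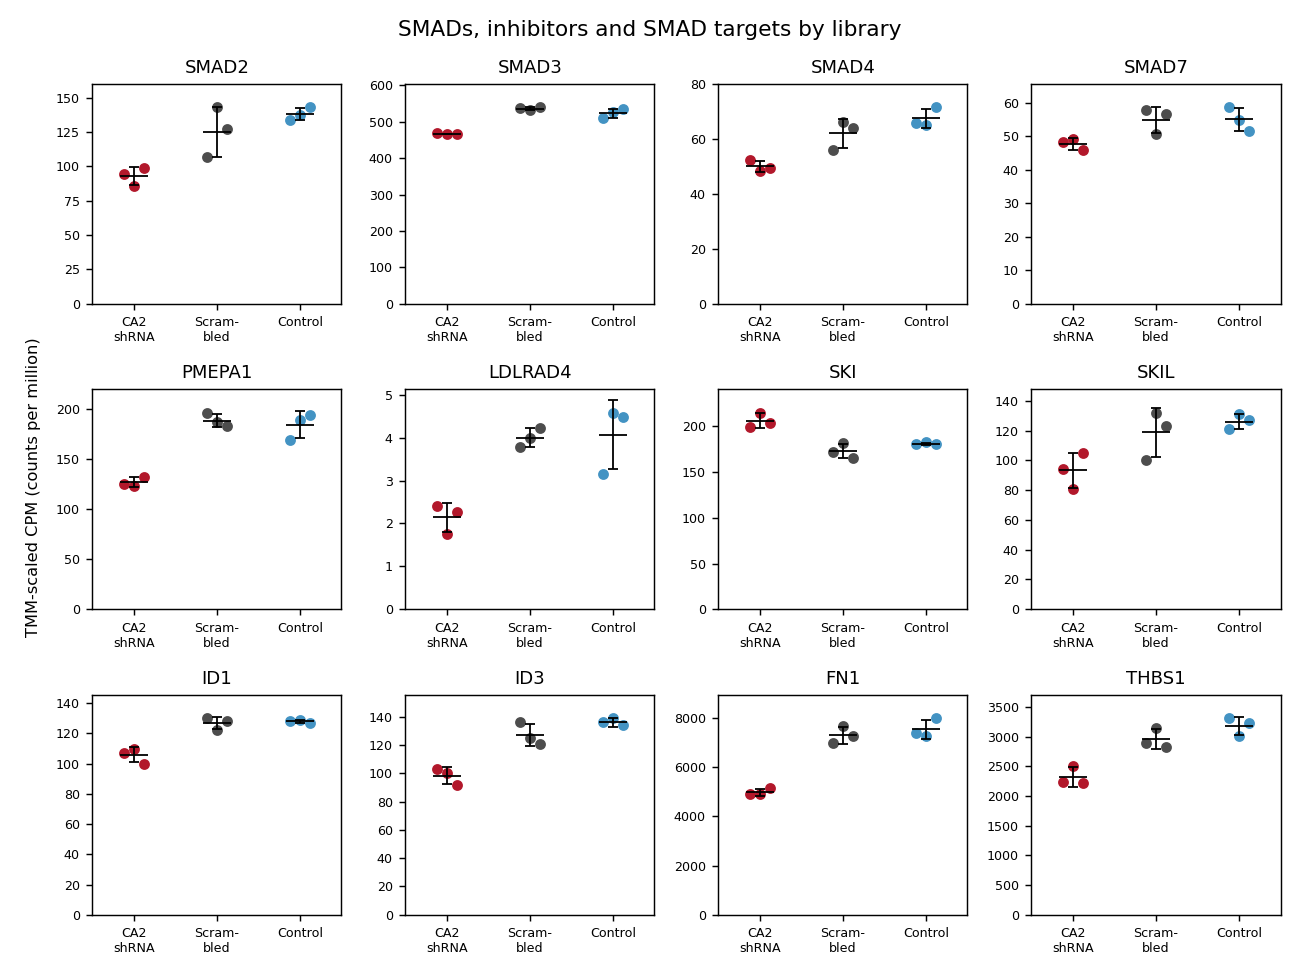
TMM-scaled CPM (vertical axis, from 0) of 12 SMAD pathway genes and targets in each library (points) with the mean and SD of 3 libraries (bars), CA2 shRNA at the left of each panel. FN1 lies at 4898 to 5157 CPM in CA2 shRNA and at 6977 CPM or more elsewhere, and SKI is the panel in which CA2 shRNA is highest.

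Of the 4 matrix genes, FN1, THBS1 and TGFBI fell and TNC did not pass. FN1 (fibronectin, the adhesive glycoprotein) had the highest level of the 36 genes, with 4898, 4921 and 5157 CPM in CA2 shRNA, against 6977, 7665 and 7266 CPM in Scrambled, with 7391, 7269 and 7995 CPM in Control. FN1 (ENSG00000115414, chr2:215360440-215436073, minus strand) stood at 68.4% of the Scrambled mean. As log2 changes this was -0.55 (SE 0.059, adjusted p = 3.18e-06) against Scrambled and -0.60 against Control (SE 0.059, adjusted p = 1.16e-06). THBS1 (thrombospondin, a matricellular protein that can activate latent TGF-beta) had 2237, 2512 and 2219 CPM in CA2 shRNA, against 2895, 3150.2 and 2824 CPM in Scrambled, with 3309.9, 3016 and 3228 CPM in Control. Its log2 change was -0.35 against Scrambled (SE 0.064, adjusted p = 0.000894) and -0.46 against Control (SE 0.064, adjusted p = 6.63e-05). For both genes every CA2 shRNA library was below every other library. TGFBI, a secreted adhesion protein named for its induction by TGF-beta, had 647, 631 and 599 CPM in CA2 shRNA, against 778, 729 and 726 CPM in Scrambled, with 695, 792 and 793 CPM in Control. The change was -0.25 against Scrambled (SE 0.06, adjusted p = 0.00743) and -0.28 against Control (SE 0.06, adjusted p = 0.00352), and without CA2 shRNA 3 the calls were lost (adjusted p = 0.0827 against Scrambled and 0.05 against Control). TNC (tenascin C, a matrix glycoprotein) had 12.3, 14.7 and 12.3 CPM in CA2 shRNA, against 9.68, 12.2 and 10.4 CPM in Scrambled, with 10.5, 11 and 13.1 CPM in Control. Its log2 change of 0.28 against Scrambled had an adjusted p of 0.125, and of 0.0149 without both Control 3 and Scrambled 2 (log2 change 0.40) or 0.024 without Scrambled 2 alone. SNAI2 (Slug, a transcription factor of epithelial to mesenchymal transition) averaged 4.91 ± 0.986 CPM in CA2 shRNA, 3.79 ± 0.37 CPM in Scrambled and 4.1 ± 0.278 CPM in Control (SD, n = 3 each), and did not pass (adjusted p = 0.154 against Scrambled).

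Per exon length the 36 genes spanned more than 3 orders of magnitude. In CA2 shRNA FN1 stood at 289 ± 12.3 RPKM, THBS1 at 253 ± 12.9 RPKM and AXL at 90.6 ± 4.67 RPKM, against 425 ± 19.4, 324 ± 19 and 166 ± 7.94 RPKM in Scrambled. The lowest were CCN5 at 0.162 ± 0.0389 RPKM and LDLRAD4 at 0.127 ± 0.0223 RPKM in CA2 shRNA, against 0.4 ± 0.122 and 0.239 ± 0.0125 RPKM in Scrambled (SD, n = 3 each). Neighbours in this order often lie within their spread, as do ID1 at 103 ± 3.35 RPKM and TGFBI at 96.7 ± 4.19 RPKM in Scrambled. CCN2 and SMAD3, at 58.5 ± 2.6 and 57.6 ± 0.418 RPKM in Scrambled, were 26.5 ± 0.962 and 49.9 ± 0.952 RPKM in CA2 shRNA, where their ranges were well apart. The largest share of a gene's exons that overlapped any single other gene was 9.95%, for YAP1, and the counting's strand setting is not stated in the sources used here.

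**Figure D5:**
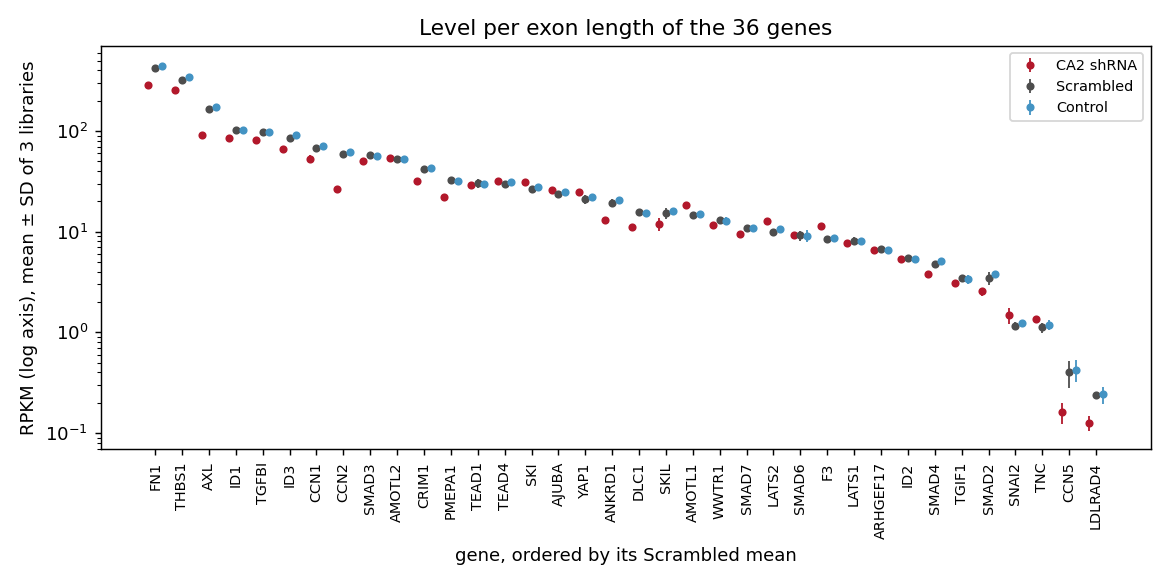
Level per exon length in RPKM (vertical log axis, mean and SD of 3 libraries) of the 36 genes, ordered by their Scrambled mean, with CA2 shRNA at the left of each gene's points. CA2 shRNA is below the other groups for FN1, AXL, CCN2 and LDLRAD4 and above them for SKI, AMOTL1, LATS2 and F3.

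The 3' UTRs of the 36 genes were searched for ACACCAA and CACCAAA, heptamers chosen in an earlier analysis of these data after the values of the falling genes were seen. In the longest annotated 3' UTR of a gene (GENCODE 29, GRCh38, sense strand), at least 1 of them occurred in 7 of the 18 genes that fell against Scrambled (38.9%), in 0 of the 5 that rose and in 4 of the 13 that did not pass (SMAD7, TEAD1, TNC and WWTR1). Among all tested genes with a 3' UTR the shares were 46.3% of those that fell, 8.65% of those that rose, 16.1% of those that did not pass and 18.5% of all 13960. The part of these heptamers in the falls was not tested. CCN2, CCN1, ANKRD1, CRIM1, DLC1, LDLRAD4, SMAD4, ID1, FN1, THBS1 and TGFBI fell and held neither, and their log2 changes against Scrambled ran from -1.13 (CCN2) to -0.25 (TGFBI). Among the 18 genes of the set that fell, the median log2 change was -0.43 with a heptamer and -0.40 without. Both medians cover only genes already called lower, so they cannot show whether a heptamer goes with a fall. Over all 36 genes the median was -0.35 with a heptamer and -0.07 without. Over all tested genes with a 3' UTR it was -0.13 with and 0.04 without. A site of each holder that fell follows, with the heptamer or their overlap in capitals. SMAD2 held a second site, and each site lies in a 3' UTR. The 3' UTRs of these holders ran from 504 bases (CCN5) to 32870 bases (SMAD2). A longer one has more room for a match, and the shares above take no account of length.
AXL, chr19:41261287-41261316, plus strand: tgactaactagACACCAAAgttctaataat
CCN5, chr20:44727435-44727464, plus strand: caccatgcagaACACCAAtattaacacgct
PMEPA1, chr20:57650669-57650698, minus strand: cagttgagcaaACACCAAcccgagcttcgg
SKIL, chr3:170392893-170392922, plus strand: ctcattaacatACACCAAAtttacttttac
SMAD2, chr18:47833309-47833338, minus strand: ttctcccacctACACCAAAtattttagtct
SMAD3, chr15:67194705-67194734, plus strand: agcatccagaaACACCAAAccaggctggct
ID3, chr1:23558295-23558324, minus strand: cccacttgacttCACCAAAtcccttcctgg

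Other genes of the same pathways were listed by name, also with earlier results of these data known. Against Scrambled 26.7% of all genes with a mean of at least 10 CPM passed, and 16.9% of all genes tested. Against Control the same shares were 23.7% and 14.7%. The shares of calls in the lists stand beside these. Among 24 tested targets of TGF-beta outside the set, 10 fell against Scrambled, 3 rose and 11 did not pass (54.2% called), with a median log2 change of -0.06, and the count of 13 calls was 8 without Scrambled 3 or without CA2 shRNA 1. Against Control 7 fell, 3 rose and 14 did not pass (41.7% called). The contractile genes TAGLN (log2 change -0.77, adjusted p = 0.000335), ACTA2 (-0.67, adjusted p = 0.0341), CALD1 (-0.59, adjusted p = 4.51e-05) and TPM1 (-0.58, adjusted p = 2.02e-07) had the largest falls. ACTA2 did not pass against Control (adjusted p = 0.102). COL1A1, a collagen gene named for its role after its values were seen, averaged 1562 CPM in CA2 shRNA and 1645 CPM in Scrambled and did not pass. Of 22 tested ligands, receptors and other components of the pathway, 6 fell, 3 rose and 13 did not pass (40.9% called, median -0.03). The type II receptor gene TGFBR2 fell (-0.80, adjusted p = 6.47e-08), while the type I receptor gene TGFBR1 (0.57, adjusted p = 0.00367) and the coreceptor gene TGFBR3 (0.92, adjusted p = 6.88e-05) rose. The ligand genes TGFB2 (-0.49, adjusted p = 7.57e-06) and TGFB1 (-0.44, adjusted p = 2.24e-05) fell, and TGFB3 did not pass (0.19, adjusted p = 0.582). The ubiquitin ligase gene RNF111, which promotes SMAD signalling, fell (-0.49, adjusted p = 1.1e-05). Against Control 8 of the 22 fell, 4 rose and 10 did not pass (54.5% called).

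Of 16 further targets of YAP and TEAD, 5 fell, 2 rose and 9 did not pass (43.8% called, median -0.06), and the 7 calls were 3 without Scrambled 3 and 4 without CA2 shRNA 2 or CA2 shRNA 3. EDN1, which encodes endothelin, changed by -1.30 (adjusted p = 0.0348) at levels of 0.45 CPM in CA2 shRNA and 1.05 CPM in Scrambled. IGFBP3, which binds insulin-like growth factors, changed by -0.69 (adjusted p = 0.000156), RBMS3, an RNA-binding protein, by -0.45 (adjusted p = 0.000985) and PHLDB2, a cortical adhesion protein, by -0.36 (adjusted p = 0.000342). Among 25 further Hippo components, 3 fell, 4 rose and 18 did not pass, with 4 calls in place of 7 without Scrambled 3 or CA2 shRNA 1. That 28% called against Scrambled is close to the 26.7% of all genes with a mean of at least 10 CPM. The count against Scrambled is therefore no result about the Hippo components, and the genes of this list are given as single values. The LATS coactivator gene MOB1A fell (-0.45, adjusted p = 0.0017) and so did WWC1 (-0.26, adjusted p = 0.00479), an upstream activator, while the kinase gene STK4 (0.35, adjusted p = 0.000461) and the TEAD cofactor gene VGLL4 (0.29, adjusted p = 0.00805) rose. Against Control 7 of the 16 targets fell and 2 rose (56.2% called), 9 calls that were 4 without Control 2 and 5 without Control 3. Of the 25 components 4 fell and 5 rose against Control (36% called). Among all genes with a mean of at least 10 CPM 23.7% passed against Control. None of these lists differed by a called gene between Scrambled and Control.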

How the data were processed

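RNA-seq of 9 libraries was analysed. The deposited tables give read counts per gene, CPM and RPKM of 60671 Ensembl genes, per the file headers. As the authors deposited them, CPM values are counts scaled to the library total and RPKM values are those CPM divided by exon length in kilobases, which was checked in every table. The tools named per the submitters' processing notes are STAR 2.5.1a, Subread's featureCounts 1.4.6-p5 and bcl2fastq, and the build is GRCh38. Annotation release and strand setting: not given in the sources used here. Symbols for 60401 IDs came from a reference table. All pairs of libraries differed by more than sampling noise.

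From the counts, filterByExpr kept 19812 genes, scaled by TMM factors (0.977 to 1.01). The test was the robust quasi-likelihood test of edgeR 4.0.16 (R 4.3.3), fitted to the 9 libraries together, with 6 residual degrees of freedom and Benjamini-Hochberg adjustment over all genes tested, at a threshold of 0.05. It was also run on simulated counts drawn from its own fitted model, which cannot test how it handles departures from that model. The biological coefficient of variation was 7.94%. DESeq2 1.42.0 was an alternative. The 36 genes, the pathway lists and the tests were chosen with earlier results of these data known. Every gene of the set past the threshold against Scrambled or Control was given with its log2 change and adjusted p. Its values in every library were given as CPM or counts. Up to 4 of each list were given by size of change, with others named for their role after their values were seen.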

Additional observations from a re-analysis of the deposited data

How the results depend on the processing

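Under 18 alternatives the genes of the set past the threshold numbered 21 to 24 against Scrambled (23 as reported) and 18 to 23 against Control (22 as reported) when 1 replicate was left out. Against Scrambled 18 of the 23 calls held in every alternative, and CCN5, YAP1, SMAD3, SKIL and TGFBI were lost in at least 1, while SMAD7 and TNC passed in at least 1. Against Control 17 of the 22 calls held, LATS2, SMAD3, SKIL, SKI and TGFBI were lost in at least 1, and WWTR1, YAP1 and SMAD7 passed in at least 1. The cause was not tested. Between Scrambled and Control the count over the set was 0 in each. Without both Control 3 and Scrambled 2, 6 genes rose and 18 fell against Scrambled, and 5 rose and 18 fell against Control. The alternatives were DESeq2 in place of edgeR, other size factors, other filters on low counts, only 2 groups in the fit, a replicate block and each library left out.

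The labels number the replicates 1 to 3 in each group and do not say whether same-numbered libraries belong together. Their deviations from the group means had correlations of -0.265 to 0.213. With means of 3 libraries these cannot decide whether they were paired. With a replicate block 5 genes rose and 18 fell against Scrambled, 23 calls, and 4 rose and 18 fell against Control, 22 calls, while over all genes the calls were 3422 and 2946, against 3348 and 2906 without it.

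Some genes that did not pass changed sign, all at log2 changes near 0. Against Scrambled these were ARHGEF17 without CA2 shRNA 3 (0.015), TEAD1 without Scrambled 2 (0.05) or CA2 shRNA 1 (0.017), LATS1 without Scrambled 2 (0.019), SMAD6 with upper-quartile factors (-0.003) or without Scrambled 2 (-0.036), and ID2 without Scrambled 2 (0.002) or CA2 shRNA 3 (0.062). Without both Control 3 and Scrambled 2 they were TEAD1 (0.047), LATS1 (0.017) and SMAD6 (-0.039). Against Control, ARHGEF17 changed sign with DESeq2 size factors (0.003), a minimum of 1 CPM (0.011) and DESeq2 (0.007), and without Control 1 (0.026), Scrambled 2 (0.02), CA2 shRNA 1 (0.01) or CA2 shRNA 3 (0.053). TEAD4 did so without Control 2 (-0.002), Scrambled 1 (-0.005) or CA2 shRNA 2 (-0.047) and with only 2 groups in the fit (-0.008), AMOTL2 without CA2 shRNA 2 (-0.016), and TEAD1 without CA2 shRNA 1 (0.029). SMAD6 did so without Control 2 (-0.002) or Control 3 (-0.046). ID2 did so with a minimum of 1 CPM (0.007), with DESeq2 (0.001), and without Control 3 (0.016), Scrambled 2 (0.015) or CA2 shRNA 3 (0.084). Without both Control 3 and Scrambled 2, TEAD1 (0.004), SMAD6 (-0.018) and ID2 (0.043) changed sign. CCN5 and LDLRAD4 had the fewest counts of the set, and their SEs of 0.31 and 0.19 limit what depth allows for them. With 1 replicate left out, the log2 changes of these genes ran as follows. Against Scrambled they were ARHGEF17 from -0.077 to 0.015, ID2 from -0.087 to 0.062, LATS1 from -0.141 to 0.019, SMAD6 from -0.036 to 0.088 and TEAD1 from -0.141 to 0.05. Against Control they were AMOTL2 from -0.016 to 0.091, ARHGEF17 from -0.055 to 0.053, ID2 from -0.051 to 0.084, SMAD6 from -0.046 to 0.14, TEAD1 from -0.08 to 0.029 and TEAD4 from -0.047 to 0.094.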
